A study of Rattus norvegicus with 9 samples.

Results

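A set of 35 genes of glucose uptake, glycolysis, lactate handling and glycogen turnover were followed in rat heart RNA. They were taken by symbol from the 22601 genes of the deposited expression table, and a row was found for each of the 35. The hearts came from 3 groups of rats, with 3 libraries a group, numbered as in the labels. WKY, the normotensive Wistar Kyoto strain, was the control, and SHR was the spontaneously hypertensive strain. Both received 1 ml of distilled water by mouth for 34 weeks. In the third group, called treated SHR here, rats of the SHR strain received Allisartan, an angiotensin receptor blocker, in that volume of water over those 34 weeks, and the hearts were sequenced at 48 weeks of age. The labels give no dose, no heart chamber and no statement that each library came from a separate animal, so p-values here describe the spread of libraries, which may be technical. SHR and WKY differ both in strain and in hypertension, and these cannot be told apart.

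Glucose enters the heart muscle cell through the transporters GLUT1 and GLUT4, is trapped as glucose-6-phosphate by hexokinase, and is then either split to pyruvate by glycolysis or stored as glycogen. Phosphofructokinase is the committed step of glycolysis and is stimulated by fructose-2,6-bisphosphate, which the PFKFB enzymes make and break down. Most steps are encoded by several genes, of which one product is typical of muscle (Pfkm, Pgam2, Eno3, Pygm) and others of brain, liver or proliferating cells. The adult heart draws most of its energy from fatty acids, and a shift toward glucose is a textbook feature of the overloaded heart.

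Hypoxia-inducible factors act on many glycolytic genes through sites with the core ACGTG, and so the start sites of the members were searched for these letters on both strands (ACGTG or CACGT), overlaps with the longer E-box CACGTG included. RefSeq promoter windows of 300 bases, on build GRCr8, were at hand for 33 members in 37 windows. At least 1 match lay in 19 of the 37 windows (51.4%), against 19.3% of the 33469 windows of all genes and 25.1% of the 10526 windows of genes tested here. The E-box CACGTG lay in 4 of the 37 windows (10.8%), against 9.30% of the windows of tested genes. A match is a description of letters and not of a bound site. Other letters were not searched, so a window with no match is not shown to lack a site. Hk2, Pfkl, Pfkp, Eno3 and Ugp2, which differed between SHR and WKY, held no match in their windows. The windows of 4 genes, with 1 match each, are shown as examples of windows with a match. Slc2a1 (chr5:138002272-138002571) and Eno1 (chr5:166003111-166003410) were higher in SHR than in WKY. Pfkm (chr7:131113849-131114148) was lower in SHR, and Pgm1 (chr5:119710484-119710783) was lower in treated SHR than in SHR. Each lies on the plus strand and reads 5′ to 3′, with the match in capitals; of the 2 Eno1 windows the other held no match.
Slc2a1: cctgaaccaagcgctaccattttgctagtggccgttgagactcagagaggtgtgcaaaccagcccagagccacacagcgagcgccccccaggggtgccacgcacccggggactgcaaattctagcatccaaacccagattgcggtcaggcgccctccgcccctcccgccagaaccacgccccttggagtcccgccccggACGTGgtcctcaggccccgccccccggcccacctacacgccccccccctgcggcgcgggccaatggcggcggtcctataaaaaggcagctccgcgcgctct
Eno1: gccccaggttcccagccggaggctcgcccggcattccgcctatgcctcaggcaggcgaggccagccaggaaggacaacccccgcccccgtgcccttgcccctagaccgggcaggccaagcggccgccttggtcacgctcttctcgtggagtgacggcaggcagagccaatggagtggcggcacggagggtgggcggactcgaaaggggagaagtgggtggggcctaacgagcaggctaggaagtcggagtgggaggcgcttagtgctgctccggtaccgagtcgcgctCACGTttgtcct
Pfkm: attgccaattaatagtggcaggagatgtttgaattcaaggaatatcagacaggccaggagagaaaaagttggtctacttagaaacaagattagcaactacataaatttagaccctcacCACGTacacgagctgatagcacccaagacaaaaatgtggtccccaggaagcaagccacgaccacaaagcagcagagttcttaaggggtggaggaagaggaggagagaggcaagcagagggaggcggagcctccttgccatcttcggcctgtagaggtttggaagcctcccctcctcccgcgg
Pgm1: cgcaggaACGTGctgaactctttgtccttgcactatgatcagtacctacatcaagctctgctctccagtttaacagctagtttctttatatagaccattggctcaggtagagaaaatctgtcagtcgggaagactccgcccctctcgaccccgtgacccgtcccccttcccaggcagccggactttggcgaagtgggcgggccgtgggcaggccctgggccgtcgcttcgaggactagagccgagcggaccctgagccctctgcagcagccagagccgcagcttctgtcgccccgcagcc

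Expression is given as FPKM (fragments scaled by transcript length and library size) divided by a size factor per library, called the level below. Since FPKM is per length, levels of different genes can be set side by side. Of the 31 members that passed the filter on low values, 21 were in the top 10% of the 11717 tested genes by mean level, led by Ldhb and Gapdh. Eno2, Slc16a3, Pfkfb1 and Pfkfb4 did not pass, with levels from 0 to 1.27, and were not tested. A change is called where limma's adjusted p, over all tested genes, is under 0.05, and is given on the scale log2(level + 0.5) with its standard error (SE). Between SHR and WKY, 9 members rose and 8 fell, so 17 of 31 were called (54.8%), against 21.9% of all tested genes. The rising members were called against a background of 11.9% of genes higher in SHR, and the falling ones against 9.93% lower. The median change of the tested members was −0.03, beside 0.01 for all tested genes. Between treated SHR and SHR, 6 rose and 9 fell, or 48.4% of 31, against 33.5% of all genes, of which 16.1% were higher and 17.4% lower; the median was −0.04, beside −0.03 for all tested genes. Between treated SHR and WKY, 5 rose and 6 fell, or 35.5% of 31, against 24.3% of all genes (12.9% higher, 11.4% lower). The first and the second comparison share the SHR libraries, so their values are set side by side and nothing is read from their opposite signs. For 22 of 31 members the library values had no overlap in the first comparison (40.9% of all tested genes), 18 in the second (46.4%) and 13 in the third (40.1%). Changes were small: 15 of the 17 called between SHR and WKY, and all 15 called between treated SHR and SHR, were under 2-fold. The median absolute change of the tested members was 0.24 in the first comparison, beside 0.20 for all tested genes. It was 0.19 beside 0.25 in the second and 0.15 beside 0.21 in the third. Whether the shares called follow from the high levels of most members was not tested. The members were chosen with earlier results of these data known, so these shares are descriptions. Without SHR replicate 3, 11 of 31 members were called for SHR against WKY (6 rose, 5 fell). For treated SHR against SHR, 9 of 31 were called (3 rose, 6 fell). In the same fits 1583 and 2886 of the 11717 tested genes were called, against 2561 and 3924 with all libraries.

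**Figure D1:**
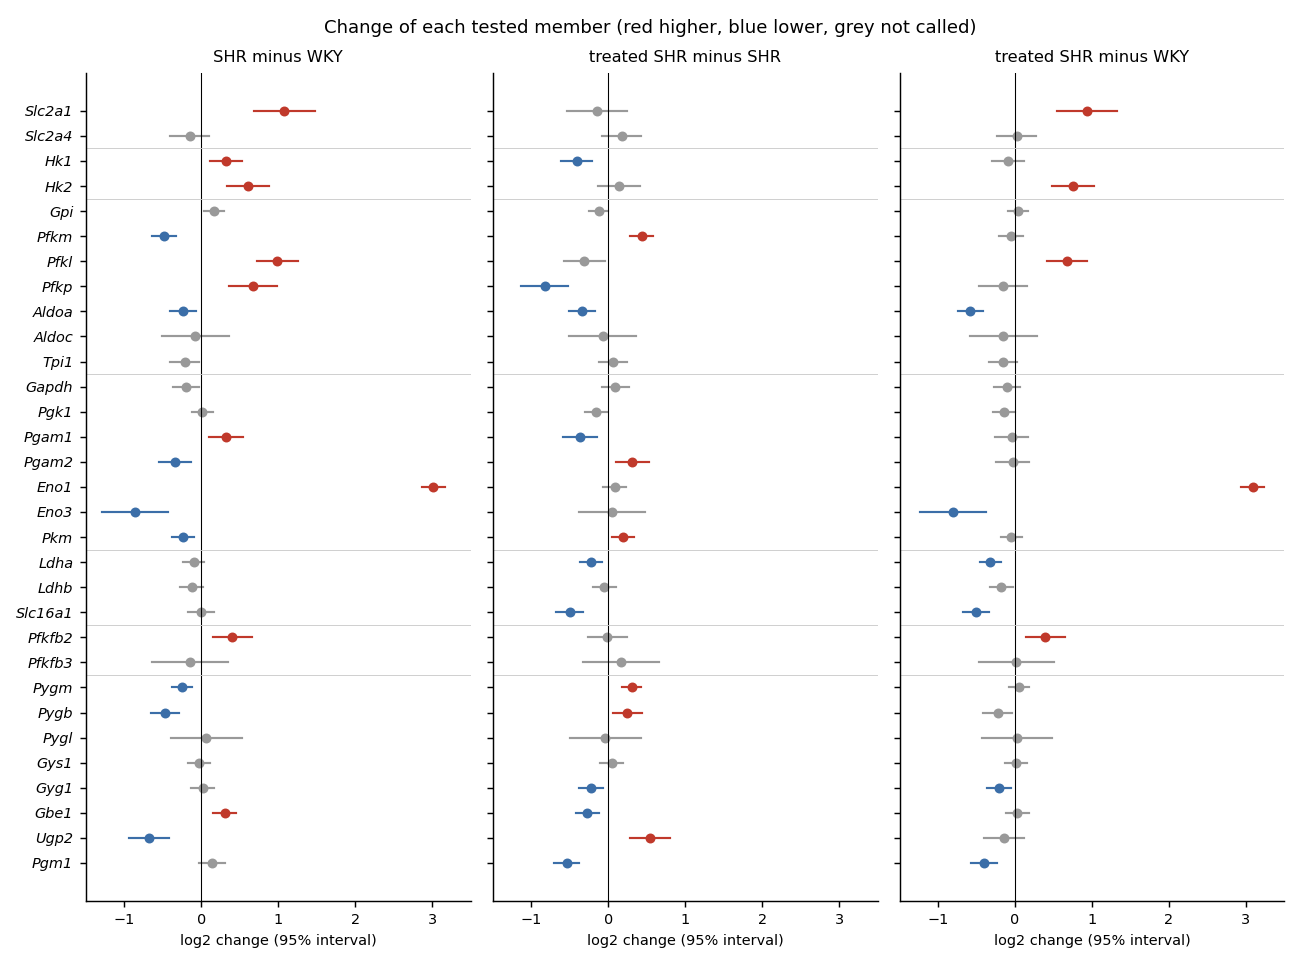
Change of each of the 31 tested members on the log2(level + 0.5) scale in the 3 comparisons, with 95% intervals from limma; genes are grouped by role, red points rose, blue points fell and grey points were not called. Eno1 lies at 3.01 and 3.09 in the comparisons with WKY, far from the other members, and at 0.08 between treated SHR and SHR.

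Levels of markers of several cell types differed between the groups. Ventricular muscle markers were abundant, with a summed level between 35327 and 37608 in WKY, between 31056 and 31391 in SHR and between 41441 and 43188 in treated SHR; 2 of 10 rose and 5 fell in SHR, and 7 rose and 3 fell in treated SHR against SHR. The fibroblast sum was between 400.3 and 445 in WKY, between 703 and 751 in SHR and between 406 and 458 in treated SHR, with 5 of 8 higher in SHR and 6 of 8 lower in treated SHR than in SHR. The macrophage sum was between 158 and 179 in WKY, between 424 and 497 in SHR and between 225 and 276 in treated SHR, with 9 of 9 higher in SHR and 7 of 9 lower in treated SHR than in SHR. The sum of 4 atrial markers lay between 1596 and 2034 in WKY, between 3317 and 6036 in SHR and between 239 and 497 in treated SHR. That sum was nearly all Nppa, which encodes atrial natriuretic peptide, and SHR replicate 3 held the highest value. Myl4, the atrial light chain, also rose in SHR (0.93, adjusted p = 0.00498), while its change of −0.50 from SHR to treated SHR was not called (adjusted p = 0.0578). The other atrial markers, Myl7 and Sln, were called in no comparison. Their changes in SHR against WKY were 0.21 (adjusted p = 0.767) and 0.35 (adjusted p = 0.786). Endothelial markers summed to between 131 and 149 over the 9 libraries, with none of 6 called in SHR against WKY; against SHR, treated SHR had Vwf lower by −0.44 (adjusted p = 0.00603) and Cdh5 higher by 0.28 (adjusted p = 0.0321). Smooth muscle markers summed to between 60.3 and 76.2 in WKY, between 89.4 and 120.0 in SHR and between 76.9 and 101 in treated SHR, with 3 of 4 higher in SHR than in WKY. Erythroid markers were highest in treated SHR, where 4 of the 4 tested rose against SHR. The summed skeletal muscle markers reached at most 1.70, and Mpo (neutrophil) and Retn (adipocyte) were at 0 in every library. The other tested markers of those 2 cell types did move: the neutrophil genes S100a8 and S100a9 rose in treated SHR against SHR (1.63, adjusted p = 0.000314; 1.32, adjusted p = 0.00548), and the adipocyte gene Cfd rose in SHR (0.67, adjusted p = 0.0385) and in treated SHR (1.06, adjusted p = 0.00442) against WKY. In bulk RNA, fewer cells of a type and less RNA per cell cannot be told apart, and the part of these shifts in the changes below was not tested.

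**Figure D2:**
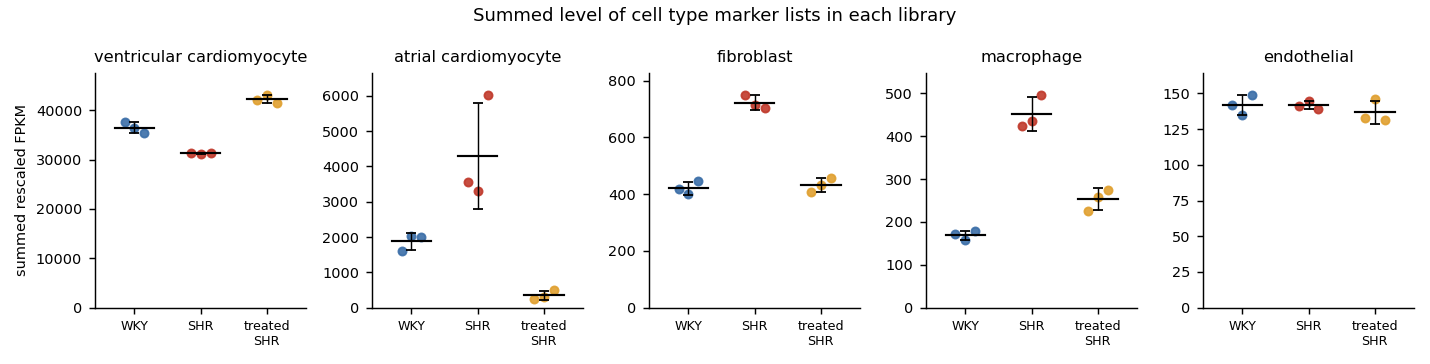
Summed level (rescaled FPKM) of 5 lists of cell type markers in each library; points are libraries, the line and bar are the mean and SD of 3. The fibroblast and macrophage sums of SHR lie above those of the other groups, and the ventricular sums of SHR lie below them.

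The glucose transporter genes moved unequally. Slc2a1, which encodes GLUT1, the basal and widely expressed transporter, was at 8.90, 6.94 and 6.46 in WKY, at 13.5, 15.6 and 19.9 in SHR and at 18.6, 12.8 and 13.0 in treated SHR. Each SHR library, treated or not, was above each WKY library, and the SHR and treated ranges overlapped. Slc2a1 rose by a log2 change of 1.08 (SE 0.18, adjusted p = 0.00199) in SHR and of 0.94 (adjusted p = 0.00412) in treated SHR against WKY. Slc2a4, which encodes the insulin-responsive GLUT4 and was the more abundant of the pair, was at 101, 116 and 109 in WKY, 107, 109 and 79.8 in SHR, and 118, 113 and 100.5 in treated SHR. The groups overlapped, and no comparison was called (−0.15, 0.17 and 0.02). The GLUT1 share of the summed pair was 6.44% ± 1.43 in WKY, 14.6% ± 4.70 in SHR and 11.8% ± 1.79 in treated SHR (SD, n = 3). With 3 libraries against 3, an exact two-sided permutation test cannot give a p below 0.1, which is what the share gave for both groups against WKY (0.184 after adjustment over 57 share tests).

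Both hexokinase genes rose in SHR. Hk1, the widely expressed form that binds mitochondria, was at 46.2, 50.4 and 47.8 in WKY, 55.9, 55.4 and 70.4 in SHR, and 44.8, 44.1 and 46.6 in treated SHR. SHR replicate 3 stood highest, and the SHR values lay above both other groups. The change was 0.32 (SE 0.09, adjusted p = 0.0306) in SHR and −0.41 (SE 0.09, adjusted p = 0.00651) in treated SHR against SHR. The rise in SHR was no longer called after leaving out SHR replicate 3 (0.21, adjusted p = 0.0871) or WKY replicate 1, 2 or 3 (adjusted p = 0.0935, 0.0528 and 0.0730). Hk2, the insulin-regulated form typical of muscle, was at 11.4, 15.5 and 14.4 in WKY, 19.0, 22.4 and 22.1 in SHR, and 25.7, 23.6 and 20.8 in treated SHR. Hk2 rose by 0.61 (SE 0.12, adjusted p = 0.00581) in SHR and by 0.75 (adjusted p = 0.00191) in treated SHR against WKY, and was not called between treated SHR and SHR (0.14, 95% interval −0.13 to 0.41). Its share of the summed pair was 22.1% ± 2.08 in WKY, 26.0% ± 2.51 in SHR and 34.1% ± 2.93 in treated SHR, with no overlap between groups (exact permutation p = 0.1 for each pair of groups).

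**Figure D3:**
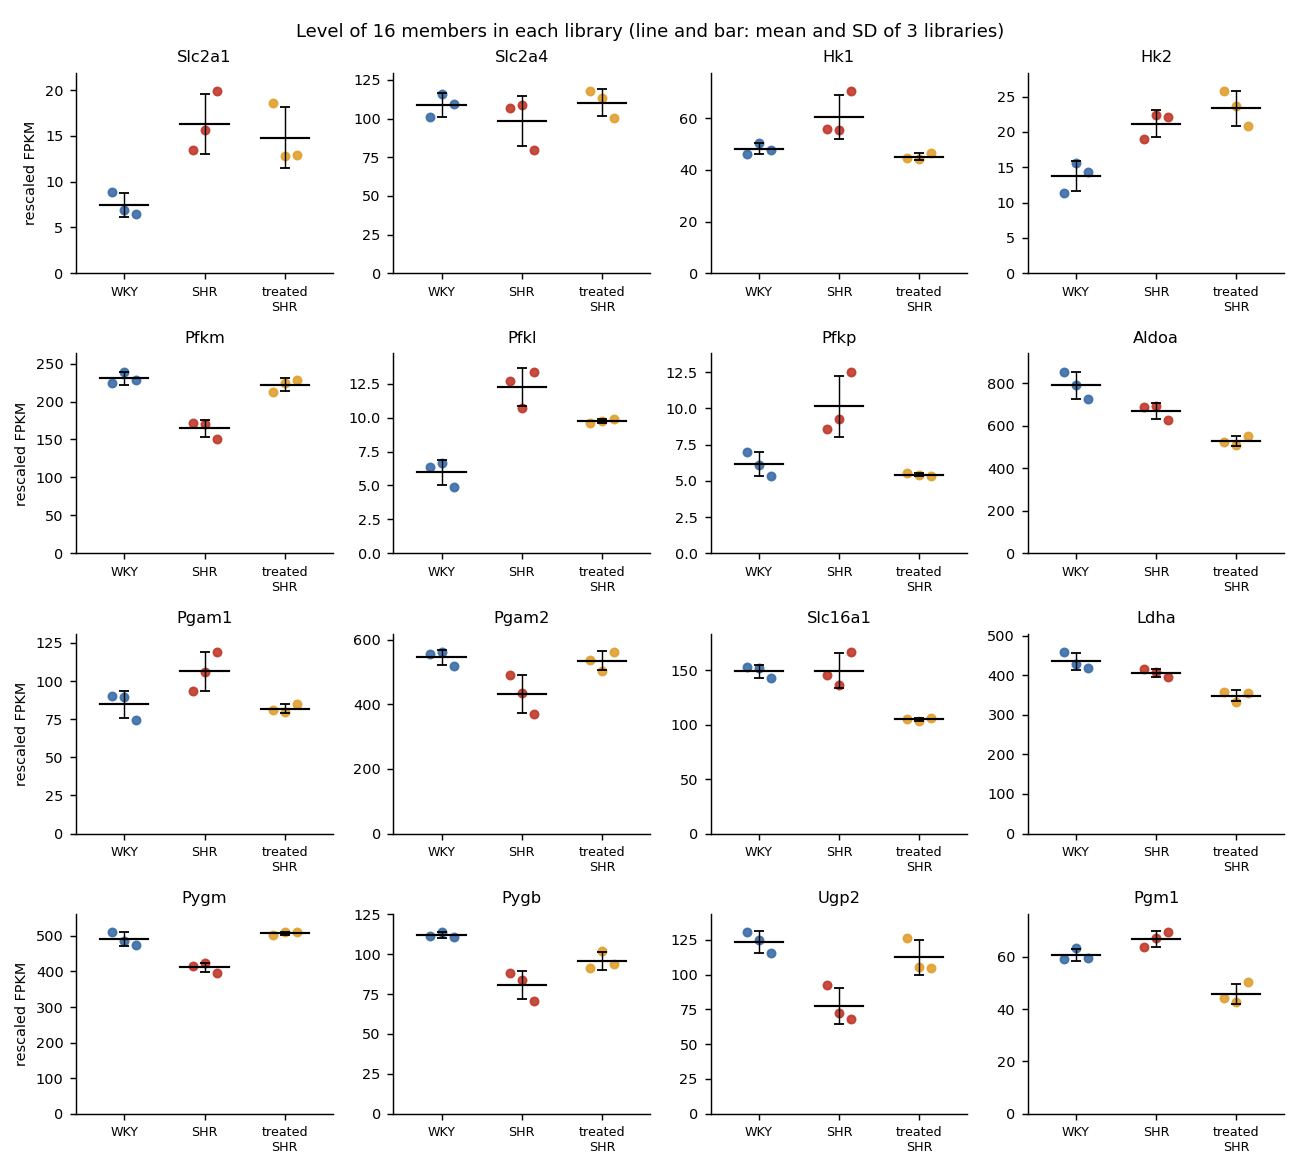
Level (rescaled FPKM, axes from 0) of 16 members in each library; points are libraries, the line and bar are the mean and SD of 3. Pfkm, Pgam2, Pygm, Pygb and Ugp2 are lowest in SHR, while Hk1, Pfkp and Pgam1 are highest there.

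In the upper steps of glycolysis the phosphofructokinase genes diverged by isoform. Pfkm, the muscle form, was at 224, 239 and 228 in WKY, 172, 171 and 151 in SHR, and 213, 225 and 229 in treated SHR. The SHR libraries lay below all others, with a change of −0.49 (SE 0.07, adjusted p = 0.000823) against WKY and 0.43 (SE 0.07, adjusted p = 0.000996) from SHR to treated SHR. Pfkl, the liver form, was at 6.33, 6.65 and 4.91 in WKY, 12.7, 10.7 and 13.4 in SHR, and 9.58, 9.74 and 9.91 in treated SHR. It rose by 0.99 (SE 0.12, adjusted p = 0.000328) in SHR and by 0.67 (adjusted p = 0.00288) in treated SHR against WKY; its change of −0.31 from SHR to treated SHR missed the threshold (adjusted p = 0.0677) and was called without rescaling (0.0347), without WKY replicate 3 (0.0355) or SHR replicate 2 (0.0408), and with the 6 libraries alone (0.0473). Pfkp, the platelet form, was at 6.99, 6.09 and 5.34 in WKY, 8.60, 9.26 and 12.5 in SHR, and 5.53, 5.43 and 5.32 in treated SHR. It rose by 0.67 (SE 0.14, adjusted p = 0.00676) in SHR and was lower in treated SHR than in SHR by −0.83 (SE 0.14, adjusted p = 0.00142). SHR replicate 3 had the lowest Pfkm and the highest Pfkp and Pfkl. It also had the highest macrophage marker sum and the highest atrial marker sum, the latter nearly all Nppa. Whether these are related was not tested. The muscle form made up 95.01% ± 0.659 of the summed phosphofructokinase level in WKY, 87.9% ± 2.28 in SHR and 93.6% ± 0.206 in treated SHR, and the groups did not overlap (exact permutation p = 0.1 for each pair, the smallest possible).

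Of the other genes of the upper steps, Aldoa changed. Aldoa, the muscle aldolase that splits fructose-1,6-bisphosphate, was at 854, 789 and 725 in WKY, 689, 694 and 628 in SHR, and 522, 509 and 552 in treated SHR. The groups did not overlap, and the order was WKY, SHR, treated SHR from high to low. Aldoa was lower in treated SHR by −0.34 (SE 0.08, adjusted p = 0.00593) against SHR and by −0.58 (SE 0.08, adjusted p = 0.000528) against WKY. The change of −0.23 between SHR and WKY was called at an adjusted p of 0.0486 and lost without any library other than WKY replicate 3 (adjusted p 0.0512 to 0.163). Gpi, the isomerase that makes fructose-6-phosphate, was at 202 ± 8.67, 226 ± 2.49 and 207 ± 3.59 (SD, n = 3) in WKY, SHR and treated SHR; the SHR values lay above the others without a call (0.16, adjusted p = 0.0638; −0.13, adjusted p = 0.115). Both Gpi changes were called without rescaling and with quantile or cyclic loess normalization (adjusted p 0.00767 to 0.0294). Tpi1, which interconverts the triose phosphates, was at 41.7 ± 3.92, 35.7 ± 1.62 and 37.3 ± 2.28 and was not called, except in SHR against WKY without WKY replicate 3 (−0.30, adjusted p = 0.0325). Aldoc, the brain aldolase, was at 0.798 to 1.74 over all libraries and was not called.

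Enolase makes phosphoenolpyruvate, and Eno1 had the largest change of the 31 members in both comparisons with WKY. Eno1, the widely expressed alpha-enolase, was at 44.6, 44.9 and 41.7 in WKY, 339, 352 and 376 in SHR, and 359, 371 and 400.4 in treated SHR. Each value of both SHR groups was far above the WKY values, and the SHR groups overlapped each other; the fitted folds were 8.05 and 8.53. The change was 3.01 (SE 0.07, adjusted p = 2.19e-09) in SHR and 3.09 (SE 0.07, adjusted p = 1.64e-09) in treated SHR against WKY, and 0.08 (95% interval −0.07 to 0.23) between the SHR groups. By the size of its change Eno1 ranked 13 of 11717 tested genes in the first of these comparisons and 8 of 11717 in the second. Eno3, the muscle beta-enolase, was at 194, 178 and 133 in WKY, 103, 99.7 and 74.2 in SHR, and 81.3, 83.0 and 127 in treated SHR. It was lower by −0.86 (SE 0.19, adjusted p = 0.0103) in SHR and by −0.80 (SE 0.19, adjusted p = 0.0136) in treated SHR; the second call was lost without WKY replicate 1 (adjusted p = 0.0507) or treated SHR replicate 2 (0.0508). The Eno3 share of summed enolase was 79.0% in WKY, 20.6% in SHR and 20.3% in treated SHR, and the sum of Eno1, Eno2 and Eno3 was 212 ± 33.6, 449 ± 5.10 and 474 ± 46.8 (SD, n = 3). Eno2, the neuronal form, stayed between 0 and 1.27, highest in SHR replicate 3. The summed neuron markers were also highest there, at 11.3, against 9.46 and 8.18 in SHR replicates 1 and 2. They were at 2.45 to 4.66 in WKY and at 3.02 to 5.16 in treated SHR. In SHR most of that sum was Uchl1, with a mean of 8.52 beside a summed mean of 9.65. Snap25, Stmn2, Gap43 and Chgb did not pass the filter.

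Several of these enzymes have many gene copies in the rat genome, which bears on how reads are assigned. The RefSeq annotation of build GRCr8 names 34 copies after Eno1, of which 31 are called pseudogenes, and none of the 34 has a row in the table, which was made on the older build Rnor_6.0 per the submitters' processing notes. In all, 217 such copies are named after 12 of the members, led by Gapdh with 91, Eno1 with 34, Ldha with 31 and Pkm with 20, and 4 have a row. How reads from Eno1 and its copies were divided, and whether WKY and SHR differ in sequence there, was not tested. LOC100911625, the enolase row among the possible copies, was taken as a copy of Eno2 and not of Eno1, and was at 0 to 0.766. LOC100911625 was 1 of 11 rows that carry a member's enzyme name, have no established symbol and were taken as possible copies. Of these 11, 3 reached a level of 1 in a group. LOC108351137, a glyceraldehyde-3-phosphate dehydrogenase row, was at 109 ± 24.3 in WKY, 87.8 ± 5.71 in SHR and 51.0 ± 11.5 in treated SHR. LOC100911515, a triosephosphate isomerase row, was at 54.4 ± 7.51, 46.6 ± 2.02 and 42.0 ± 2.67, above Tpi1 itself, and LOC100364062, a pyruvate kinase row, at 17.3 ± 0.714, 14.4 ± 0.405 and 8.43 ± 1.25. Adding such rows to their member ended the call of Pkm between treated SHR and SHR (0.15, adjusted p = 0.0869). It made a call of Tpi1 between treated SHR and WKY (−0.27, adjusted p = 0.0428). The values of Tpi1, Gapdh and Pkm are thus uncertain by about the level of these rows. None of the copies named after Ldha (31), Pgam1 (13), Aldoa (9) or Pgk1 (9) has a row. How reads were divided between these members and their copies was not tested.

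**Figure D4:**
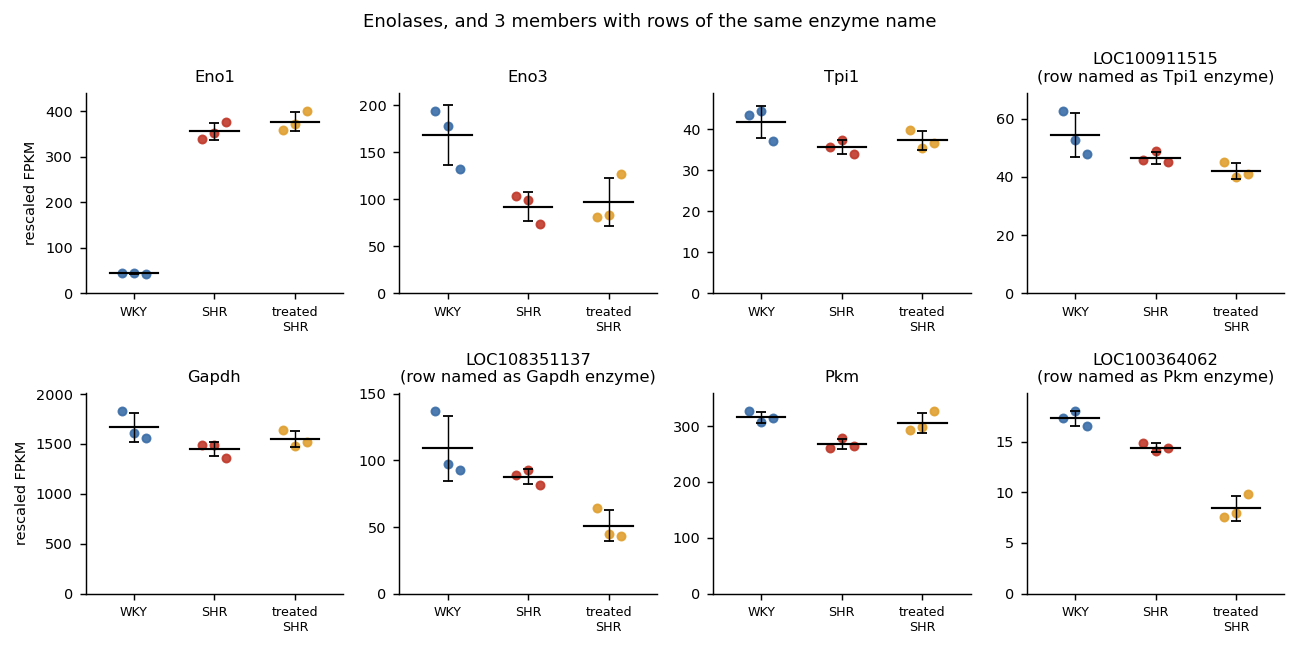
Level (rescaled FPKM, axes from 0) of Eno1 and Eno3, and of Tpi1, Gapdh and Pkm beside a row of the table that carries the same enzyme name; points are libraries, the line and bar are the mean and SD of 3. Eno1 is at 41.7 to 44.9 in WKY and at 339 or more in all SHR libraries, whereas the 3 rows with enzyme names are lowest in treated SHR.

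Of the other lower steps, the phosphoglycerate mutase genes also moved in opposite directions. Pgam2, the muscle mutase, was at 556, 563 and 519 in WKY, 491, 435 and 371 in SHR, and 539, 504 and 562 in treated SHR. Pgam1, the widely expressed mutase, was at 89.99, 89.7 and 74.4 in WKY, 93.8, 106 and 119 in SHR, and 80.8, 79.4 and 85.3 in treated SHR. In SHR against WKY Pgam2 fell by 0.35 (SE 0.10, adjusted p = 0.0255) and Pgam1 rose by 0.32 (SE 0.10, adjusted p = 0.0399); from SHR to treated SHR Pgam2 rose by 0.32 (adjusted p = 0.0271) and Pgam1 fell by 0.37 (adjusted p = 0.0163). Each of these 4 calls was lost without some of the libraries. For SHR against WKY, the Pgam2 call was lost without WKY replicate 1 or 2 or SHR replicate 2 or 3 (adjusted p 0.0625 to 0.0846), and that of Pgam1 without any WKY library, SHR replicate 2 or 3 or treated SHR replicate 1 or 2 (0.0502 to 0.146). For treated SHR against SHR, that of Pgam2 was lost without SHR replicate 2 or 3 or treated SHR replicate 1 or 3 (0.0618 to 0.0899), and that of Pgam1 without SHR replicate 3 (0.0640) or treated SHR replicate 2 (0.0533). The Pgam1 share of the summed pair was 13.4% ± 0.746, 20.0% ± 4.15 and 13.3% ± 0.303 in WKY, SHR and treated SHR.

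Pkm, pyruvate kinase, which makes pyruvate and ATP, was at 326, 306 and 314 in WKY, 262, 278 and 264 in SHR, and 293, 298 and 326 in treated SHR. The SHR libraries were the lowest. The change was −0.24 (SE 0.06, adjusted p = 0.0229) in SHR, lost without WKY replicate 1 or 3 or SHR replicate 1 or 3 (adjusted p 0.0510 to 0.0724). From SHR to treated SHR it was 0.19 (adjusted p = 0.0411), lost without any library other than WKY replicate 1 or treated SHR replicate 1 (0.0528 to 0.128). Gapdh, which makes 1,3-bisphosphoglycerate and NADH, was at 1665 ± 141, 1447 ± 73.2 and 1545 ± 79.9 and Pgk1, which makes ATP, at 323 ± 14.3, 326 ± 0.9754 and 292 ± 17.3 (SD, n = 3) in WKY, SHR and treated SHR, with no call. The Gapdh values of WKY and SHR did not overlap although the adjusted p was 0.0925. Those of Pgk1 did not overlap between SHR and treated SHR, where its change was −0.16 (adjusted p = 0.0776) and was called without rescaling (0.0200), with quantile (0.0110) or cyclic loess normalization (0.00360) and without treated SHR replicate 1 (0.0490).

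**Figure D5:**
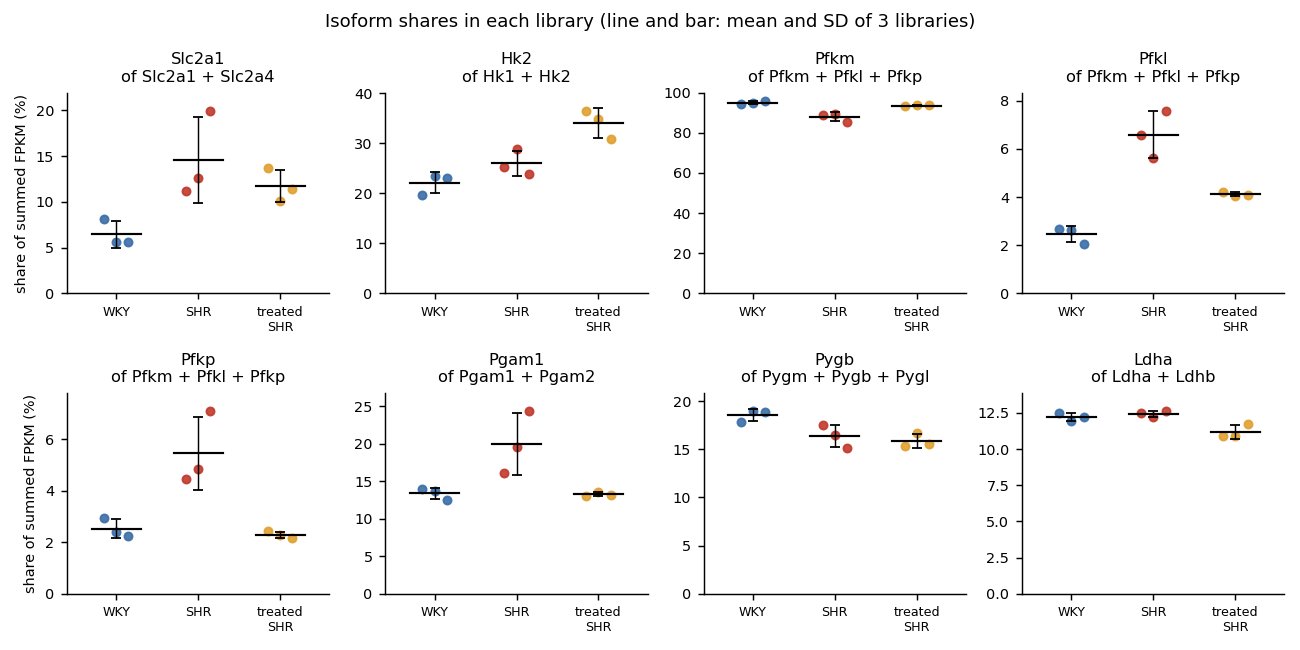
Share (%) of 8 isoforms in the summed level of their enzyme or transporter family in each library; points are libraries, the line and bar are the mean and SD of 3, and every axis starts at 0. The Pfkm share is lowest in SHR, the Pfkl, Pfkp and Pgam1 shares are highest there, and the Hk2 share is highest in treated SHR.

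Of the 3 tested genes of lactate handling none was called between SHR and WKY, and Slc16a1 and Ldha fell in treated SHR. Slc16a1, which encodes the lactate and pyruvate transporter MCT1, was at 153, 152 and 142 in WKY, 145, 136 and 167 in SHR, and 105, 104 and 107 in treated SHR. The treated values lay together below both other groups, which overlapped. Slc16a1 fell by 0.50 (SE 0.08) against SHR (adjusted p = 0.000855) and against WKY (adjusted p = 0.00130). Ldha, the lactate dehydrogenase subunit typical of skeletal muscle, was at 459, 429 and 417 in WKY, 416, 407 and 396 in SHR, and 358, 332 and 354 in treated SHR. It fell by 0.22 (SE 0.06, adjusted p = 0.0189) from SHR to treated SHR, a call lost without SHR replicate 1 or 2 or treated SHR replicate 2 (0.0557 to 0.0808), and by 0.32 (adjusted p = 0.00457) against WKY. Ldhb, the heart subunit and the most abundant member, was at 3126 ± 118, 2862 ± 106 and 2764 ± 147 (SD, n = 3) with no call. The Ldha share of the summed pair was 12.2% ± 0.288 in WKY, 12.4% ± 0.218 in SHR and 11.2% ± 0.493 in treated SHR. Slc16a3, which encodes MCT4, the lactate exporter of glycolytic cells, was at 0.0584 to 0.428 and was not tested.

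Of the enzymes that set fructose-2,6-bisphosphate, Pfkfb2, the heart form, was at 5.96, 4.84 and 4.98 in WKY, 6.19, 7.51 and 7.62 in SHR, and 7.63, 6.56 and 6.95 in treated SHR. Both SHR groups lay above WKY. Pfkfb2 rose by 0.40 (SE 0.11, adjusted p = 0.0291) in SHR and by 0.39 (adjusted p = 0.0301) in treated SHR; the first was lost without WKY replicate 2 or 3 or SHR replicate 2 or 3 (0.0843 to 0.107) and the second without WKY replicate 2 or 3 or treated SHR replicate 1 or 3 (0.0607 to 0.104). Pfkfb3, the inducible form with the strongest kinase activity, was at 2.66 to 5.41 in SHR, 3.55 to 5.001 in WKY and 3.51 to 5.30 in treated SHR, with no call. Pfkfb1, known from liver and skeletal muscle, and Pfkfb4, known from testis, stayed at or below 0.489.

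Among the 8 glycogen genes, Pygm, Pygb and Ugp2 fell in SHR and Gbe1 rose. Pygm, the muscle glycogen phosphorylase that releases glucose-1-phosphate, was at 511, 487 and 475 in WKY, 415, 423 and 396 in SHR, and 503, 510.1 and 510.4 in treated SHR. SHR lay below both other groups, with a change of −0.26 (SE 0.06, adjusted p = 0.0103) against WKY and 0.30 (SE 0.06, adjusted p = 0.00280) from SHR to treated SHR. The first call was lost with quantile (adjusted p = 0.0570) or cyclic loess normalization (0.0744). Pygb, the brain phosphorylase that heart also expresses, was at 112, 114 and 111 in WKY, 88.1, 83.6 and 70.8 in SHR, and 91.5, 102 and 94.0 in treated SHR. It fell by 0.48 (SE 0.08, adjusted p = 0.00285) in SHR. Its rise of 0.25 from SHR to treated SHR (adjusted p = 0.0416) was lost without any library other than SHR replicate 1 (0.0509 to 0.140). Its change of −0.23 between treated SHR and WKY was not called (adjusted p = 0.0749) but was called without SHR replicate 3 (0.0331), with the 6 libraries alone (0.0424) and with quantile normalization (0.0474). Pygl, the liver phosphorylase, was at 0.571 to 1.117 over all libraries with no call.

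Ugp2 makes UDP-glucose, the glucose donor of glycogen synthesis. Its level was 131, 125 and 115 in WKY, 92.5, 72.2 and 67.8 in SHR, and 127, 105.4 and 105.0 in treated SHR. All SHR values were below those of the other groups, with a change of −0.68 (SE 0.12, adjusted p = 0.00251) against WKY and 0.54 (SE 0.12, adjusted p = 0.00549) from SHR to treated SHR. Pgm1, phosphoglucomutase, which links glucose-1-phosphate and glucose-6-phosphate, was at 59.3, 63.3 and 59.5 in WKY, 63.7, 67.0 and 69.6 in SHR, and 44.4, 42.9 and 50.3 in treated SHR. The treated values lay below both other groups: Pgm1 fell by 0.54 (SE 0.07, adjusted p = 0.000466) against SHR and by 0.40 (adjusted p = 0.00368) against WKY. Gbe1, the branching enzyme, was at 32.2, 34.7 and 33.3 in WKY, 38.7, 42.1 and 43.2 in SHR, and 33.1, 35.5 and 33.8 in treated SHR. It rose by 0.30 (SE 0.07, adjusted p = 0.0110) in SHR and fell by 0.27 (SE 0.07, adjusted p = 0.0127) from SHR to treated SHR, the second call being lost without SHR replicate 3 (0.0505). Gyg1, glycogenin, the primer of glycogen, was at 113 ± 5.70, 114 ± 2.65 and 98.0 ± 6.61 (SD, n = 3) in WKY, SHR and treated SHR. It fell by 0.22 (SE 0.07, adjusted p = 0.0293) from SHR to treated SHR, lost without any SHR library or treated SHR replicate 2 or 3 (0.0564 to 0.0936), and by 0.21 against WKY (adjusted p = 0.0497), lost without any library other than WKY replicate 3 or treated SHR replicate 1 (0.0614 to 0.151). Gys1, the muscle glycogen synthase, was at 46.0 ± 0.713, 45.1 ± 0.903 and 46.6 ± 2.87, with changes of −0.03, 0.04 and 0.02 and no call.

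Levels were also summed by role. The 8 glycogen genes summed to 981 ± 31.7 in WKY, 838 ± 25.1 in SHR and 941 ± 10.6 in treated SHR (SD, n = 3), with SHR below both other groups (exact permutation p = 0.1). The 2 hexokinases summed to 61.9 ± 4.16, 81.7 ± 9.46 and 68.5 ± 1.72, with no overlap between groups. The 7 genes of the upper steps summed to 1277 ± 75.3, 1120 ± 44.4 and 1011 ± 23.0, with no overlap between groups, although WKY and SHR overlapped without rescaling. The lactate genes summed to 3710.1 ± 142, 3418 ± 99.8 and 3218 ± 154, with overlap between SHR and treated SHR and not between either and WKY; without rescaling WKY and SHR overlapped and the SHR groups did not. The transporters (116 ± 6.64, 115 ± 13.3 and 125 ± 11.4) overlapped in each pair of groups, and the fructose-2,6-bisphosphate genes (9.91 ± 0.226, 11.3 ± 0.731 and 11.9 ± 0.598) were lowest in WKY. The 8 genes of the lower steps summed to 3147 ± 213, 3029 ± 117 and 3234 ± 122, with overlap between groups; without Eno1 the sums were 3104, 2673 and 2857, and WKY and SHR no longer overlapped. All 35 members together made up 2.17% to 2.52% of the summed FPKM of a library.

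Lists of genes around the pathway, like the members and the marker lists, were chosen with earlier results of these data known. The shares below are thus descriptions. These lists held 94 further genes, of which 77 were tested. Between SHR and WKY 11 rose and 13 fell (31.2%, against 21.9% of all tested genes), between treated SHR and SHR 16 rose and 20 fell (46.8%, against 33.5%), and between treated SHR and WKY 9 rose and 14 fell (29.9%, against 24.3%). In the list of glucose side branches 5 of 16 rose and 2 fell in SHR, beside 11.9% and 9.93% of all genes. In treated SHR against SHR, 1 rose and 7 fell, beside 16.1% and 17.4%. Between treated SHR and WKY, 1 rose and 1 fell (12.5%, against 24.3%). Gfpt2, which opens the hexosamine branch, had means of 3.10 in WKY, 10.1 in SHR and 3.51 in treated SHR (1.54, adjusted p = 0.000203; −1.38, adjusted p = 0.000263). Uap1, which makes UDP-N-acetylglucosamine, went from 10.5 to 24.0 and was at 13.4 in treated SHR (1.13, adjusted p = 0.000229; −0.80, adjusted p = 0.00110). Ogt, which attaches that sugar to proteins, had means of 30.3, 19.4 and 27.7 (−0.63, adjusted p = 0.000461; 0.50, adjusted p = 0.00106).

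Of the 7 tested genes around uptake and phosphorylation, 2 rose and 2 fell in SHR against WKY and also in treated SHR against SHR (57.1% each time, against 21.9% and 33.5% of all genes), and none rose and 1 fell in treated SHR against WKY. Txnip, which restrains glucose uptake, had means of 444 in WKY, 193 in SHR and 275 in treated SHR (−1.22, adjusted p = 0.000503; 0.51, adjusted p = 0.0299). Tbc1d1, a Rab GTPase-activating protein that holds GLUT4 inside the cell, changed by 0.61 (adjusted p = 0.00286) and −0.54 (adjusted p = 0.00344). Its relative Tbc1d4 was at 18.5, 13.9 and 18.3. Tbc1d4 changed by −0.39 (adjusted p = 0.0225) in SHR against WKY and by 0.37 (adjusted p = 0.0215) in treated SHR against SHR. G6pc3, a glucose-6-phosphatase, changed by 0.33 (adjusted p = 0.00426) and −0.43 (adjusted p = 0.000584).

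Of 11 tested further genes of glycolysis and lactate, none rose and 4 fell in SHR, beside 11.9% and 9.93% of all genes. In treated SHR against SHR, 5 rose and 2 fell, beside 16.1% and 17.4%. Between treated SHR and WKY, 2 rose and 3 fell (45.5%, against 24.3% of all genes). Bsg, or basigin, the partner that carries MCT1 to the cell surface, had means of 274 in WKY, 230 in SHR and 372 in treated SHR (−0.25, adjusted p = 0.0127; 0.69, adjusted p = 3.99e-05), while Slc16a1 itself was lower in treated SHR. Slc16a7, which encodes the transporter MCT2, was at 0.895, 1.04 and 3.71 and rose by 1.48 (adjusted p = 0.000240) from SHR to treated SHR. Fbp2, the muscle fructose-1,6-bisphosphatase, was at 1.39, 0.467 and 0.485 and fell in SHR by 0.97 (adjusted p = 0.0146). Its means in SHR and treated SHR lay under the filter value of 0.5, so the size of this change is uncertain.

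Of 18 further glycogen genes, 4 rose and 1 fell in SHR (27.8%, against 21.9% of all genes). In treated SHR against SHR, 3 rose and 4 fell (38.9%, against 33.5%). Both shares were near the background. Between treated SHR and WKY, 4 rose and 4 fell (44.4%, against 24.3% of all genes). Ppp1r3c and Ppp1r3d, which bring a phosphatase to glycogen, changed by 0.76 (adjusted p = 0.00222) and −0.83 (adjusted p = 0.000509) in SHR, and Pgm5, a relative of phosphoglucomutase, by 0.38 (adjusted p = 0.00740). From SHR to treated SHR, Stbd1, a glycogen-binding protein, fell by 0.73 (adjusted p = 0.00216). The glycogen synthase kinases differed in sign there: Gsk3a rose by 0.31 (adjusted p = 0.00371) and Gsk3b fell by 0.35 (adjusted p = 0.00376). Of 25 regulators, none rose and 4 fell in SHR, a share of 16% that is below the 21.9% of all genes: Mef2a and Mef2d, transcription factors of muscle genes that include Slc2a4, fell by 0.40 (adjusted p = 0.00318) and 0.28 (adjusted p = 0.0258), and Epas1, which encodes HIF-2alpha, by 0.33 (adjusted p = 0.00359). The fourth, Klf15, a factor known to raise Slc2a4, was at 12.6 in WKY, 9.02 in SHR and 17.5 in treated SHR and rose by 0.90 (adjusted p = 0.000674) in treated SHR against SHR, where 5 regulators rose and 5 fell (40%, against 33.5%). Mef2a and Mef2d were also among those that rose there, by 0.48 (adjusted p = 0.000752) and 0.38 (adjusted p = 0.00405). Between treated SHR and WKY, 2 regulators rose and 5 fell (28%, against 24.3%).

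The ACGTG core was set beside the calls as a description. Of the members with a promoter window, it was present in 5 of the 9 that rose in SHR against WKY, 4 of the 8 that fell and 9 of the 12 not called. Between treated SHR and SHR it was present in 8 of the 9 that fell (Hk1, Aldoa, Pgam1, Ldha, Slc16a1, Gyg1, Gbe1 and Pgm1, but not Pfkp), 3 of the 6 that rose and 7 of the 14 not called. These counts carry no test.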

How the data were processed

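Gene expression was measured by RNA-seq in 9 libraries of rat heart, 3 each of WKY, SHR and treated SHR; RNA was extracted with a mirVana kit and libraries were made with a TruSeq Stranded mRNA kit, per the labels' protocols. The deposited table holds FPKM values per gene; Trimmomatic, HISAT2, Cufflinks, HTSeq and DESeq and the build Rnor_6.0 are named in the submitters' processing notes, which do not say which step each served. Library totals ran from 359207 to 388172 FPKM, and read depth is not given in the sources used here. Each library was divided by a median-of-ratios factor (0.965 to 1.04, from 9194 genes at 1 or more in all libraries). The filter kept 11717 of 22601 genes, those reaching 0.5 in 3 or more libraries, and log2(value + 0.5) was fitted with limma 3.58.1 (R 4.3.3) with a variance trend, 9 libraries and 3 contrasts, with Benjamini-Hochberg adjustment. The pseudocount understates changes of low genes. The fit was tested on simulated data. Shares and role sums were compared by two-sided exact permutation tests (SciPy 1.17.1). Correlations of log2 values were 0.985 to 0.990 within groups and 0.961 to 0.975 between groups. The members, marker lists and pathway lists were chosen with earlier results of these data known; of each pathway list and each of the first 2 comparisons, the 3 called genes with the smallest p were named, except 1 that is not reported here. Alternatives covered scaling, pseudocount, filter, moderation, weights, libraries left out, a replicate block and added copy rows, the last chosen after seeing the data. Promoter windows came from RefSeq (GRCr8).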

Additional observations from a re-analysis of the deposited data

How the results depend on the processing

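Across 20 alternatives for each of the 31 members no called change reversed. Of the calls, 10 of 17 (SHR against WKY), 8 of 15 (treated SHR against SHR) and 8 of 11 (treated SHR against WKY) held in every alternative. The 10 were Eno1, Eno3, Gbe1, Hk2, Pfkl, Pfkm, Pfkp, Pygb, Slc2a1 and Ugp2. The 8 of the second comparison were Aldoa, Hk1, Pfkm, Pfkp, Pgm1, Pygm, Slc16a1 and Ugp2. Leaving out a library gave 11 to 16, 9 to 14 and 9 to 11 called members and 1583 to 2628, 2886 to 3841 and 1907 to 2769 called genes in the 3 comparisons; the lowest counts of the first 2 came without SHR replicate 3, and the cause was not tested. Quantile or cyclic loess normalization left 4 members lower in SHR, ending the calls of Aldoa, Pgam2, Pkm and Pygm, and 3 higher in treated SHR than in SHR, ending those of Pgam2, Pkm and Pygb; both, and no rescaling, added a call of Gpi in each of these comparisons and of Pgk1 in the second, and cyclic loess added Ldhb in treated SHR against SHR and against WKY. Without rescaling the latter was also 3, and the share of higher genes among all called moved from 54.6% to 64.6% (SHR against WKY) and from 48.1% to 38.2% (treated SHR against SHR). Same-numbered libraries of different groups showed no clear common deviation (correlations −0.062 to 0.083 over 9 pairs, −0.069 to 0.064 over 18 other pairs). The libraries were therefore not treated as paired, although such correlations cannot exclude a pairing. With a replicate block 2544, 3851 and 2758 genes were called. Among the members the block ended the calls of Pgam1 (SHR against WKY, adjusted p = 0.0631), Pkm (treated SHR against SHR, 0.0502) and Gyg1 (treated SHR against WKY, 0.0550), and added Gapdh (SHR against WKY, 0.0398) and Ldhb (treated SHR against WKY, 0.0373). FPKM without read counts leaves the counting error of low members such as Aldoc and Pygl unknown.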
